A study of Mus musculus with 18 samples.

Results

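The 10 genes described here are core and output genes of the circadian clock, chosen by symbol from the 55487 genes of the deposited count table: the output factors Dbp, Tef and Hlf, the nuclear receptors Nr1d1 and Nr1d2, the repressors Per1, Per2 and Per3, and the activators Arntl and Clock. They were selected on how they differed between each agonist and its vehicle, so those differences are given as a description: counts of calls are printed beside the share of all genes called, and nothing is read from them. All 10 were among the 15247 genes that passed the low-count filter, although Hlf, with 3 to 29 counts per library, was close to it. The samples were organoids, self-organising epithelial cultures, grown from the small intestine of female wild-type (WT) C57BL/6 mice. They were kept for 4 days with norepinephrine at 1 µM (5 libraries), with UK14304, a synthetic agonist of the α2 adrenergic receptors, at 1 µM (5 libraries), with HCl as the vehicle control for norepinephrine (4 libraries), or with DMSO as the vehicle control for UK14304 (4 libraries). Libraries carried a replicate number, 1 to 4 in the vehicle groups and 1 to 5 in the agonist groups, and the labels do not say what a number stands for. The hour of harvest is not given in the sources used here, and 1 harvest per culture does not give a phase.

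The circadian clock is a feedback loop of transcription. CLOCK and BMAL1, the product of Arntl, bind E-boxes and switch on the Period and Cryptochrome genes, whose proteins then block CLOCK and BMAL1, while REV-ERB proteins, from Nr1d1 and Nr1d2, repress Arntl through ROR elements. DBP, TEF and HLF belong to the PAR bZIP family, are themselves E-box targets, and carry the rhythm to output genes by binding D-boxes, among them genes of nutrient and drug handling in the gut and liver.

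The 18 libraries held 21866149 to 27850373 counts. All 11 epithelial markers were detected in every library, and the 10 markers of leukocytes, endothelium, fibroblasts, muscle and neurons summed to 1.34 to 3.23 CPM (counts scaled to a common library total), with up to 2.00 in the DMSO and up to 3.23 in the UK14304 libraries. A single transcript annotated as ribosomal RNA took over 1% of the counts in 1 HCl, 2 norepinephrine, 3 DMSO and 1 UK14304 library. Libraries also differed in how expression depended on the GC content of the transcripts: the slope, in log2 units per 10 percentage points of GC, lay between -0.039 and 0.128 in the DMSO libraries and between -0.235 and 0.064 in the UK14304 libraries. Norepinephrine library 4 stood apart, with a slope of 0.204 against -0.153 to -0.076 in the other 4 norepinephrine libraries. Results for norepinephrine against HCl are given with and without it.

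The promoters of the clock genes were searched for the elements through which the loop runs, on both strands, in a window from 250 bases before to 50 bases after each RefSeq start site (GRCm38.p6), which matched 9 of the 10 genes, all but Per2. The E-box CACGTG is in 7.15% of 32851 such windows, the D-box TTANGTAA in 2.32%, the cyclic AMP response element TGACGTCA in 1.79% and the ROR element core TAGGTCA in 2.61%. E-boxes were found in Per1 and Tef, D-boxes in Per3, the cyclic AMP element in Hlf and the ROR core in 1 of the 2 Arntl windows, and no hit overlapped another motif. None of the 4 motifs was in the windows of Dbp, Nr1d1, Nr1d2 or Clock, which says only that these letters are absent there. The windows with an E-box or a D-box are shown because those elements link the loop to its output genes, with the motif in capitals. For Per3 the 250 bases upstream of the start (chr4:151044666-151044915, minus strand) hold D-boxes that begin at positions -205 and -158, counted from the first transcribed base. The second Tef start (chr15:81811164-81811413, plus strand) has its E-box at position -138. The E-box at position -127 of the first Tef start (chr15:81802534-81802563, plus strand) lies in an exon of the GENCODE annotation, and the one at position -166 of Per1 (chr11:69098771-69098800, plus strand) does not.
Per3: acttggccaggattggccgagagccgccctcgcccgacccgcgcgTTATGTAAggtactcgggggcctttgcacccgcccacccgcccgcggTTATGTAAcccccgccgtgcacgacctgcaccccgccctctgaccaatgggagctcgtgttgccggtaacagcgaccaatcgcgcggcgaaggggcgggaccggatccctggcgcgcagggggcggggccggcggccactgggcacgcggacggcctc
Tef, second start: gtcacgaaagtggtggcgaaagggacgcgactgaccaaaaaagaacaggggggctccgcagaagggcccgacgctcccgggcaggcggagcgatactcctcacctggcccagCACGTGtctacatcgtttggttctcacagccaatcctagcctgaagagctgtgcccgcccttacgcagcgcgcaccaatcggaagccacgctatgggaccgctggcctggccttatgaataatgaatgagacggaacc
Tef, first start: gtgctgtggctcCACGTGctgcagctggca
Per1: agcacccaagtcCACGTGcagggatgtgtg

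Per length, as CPM per kilobase of exon (FPKM) averaged over the 18 libraries, Nr1d1 stood highest at 15.5, followed by Clock at 9.7 and Nr1d2 at 9.14. The ranges over libraries of Clock (8.03 to 11.5) and Nr1d2 (7.56 to 10.9) overlapped, so their order is not separated from the spread. The range of Nr1d1 (11.2 to 18.6) overlapped that of Clock as well. Tef followed at 6.82 FPKM, then Per2 at 5.08, Arntl at 5.01 and Per1 at 4.27, with overlapping ranges for these last 3. The range of Tef (5.39 to 7.43) overlapped those of Per2 (4.12 to 5.78) and Arntl (4.53 to 5.45). Dbp, at 2.07 FPKM, and Per3, at 1.8, overlapped too, and Hlf was lowest at 0.0695. Within groups, Tef (4.62%), Arntl (5.3%) and Per2 (8.84%) had the smallest coefficients of variation, and Dbp (12.1%) and Per3 (11.3%) the largest apart from Hlf (52.9%).

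**Figure D1:**
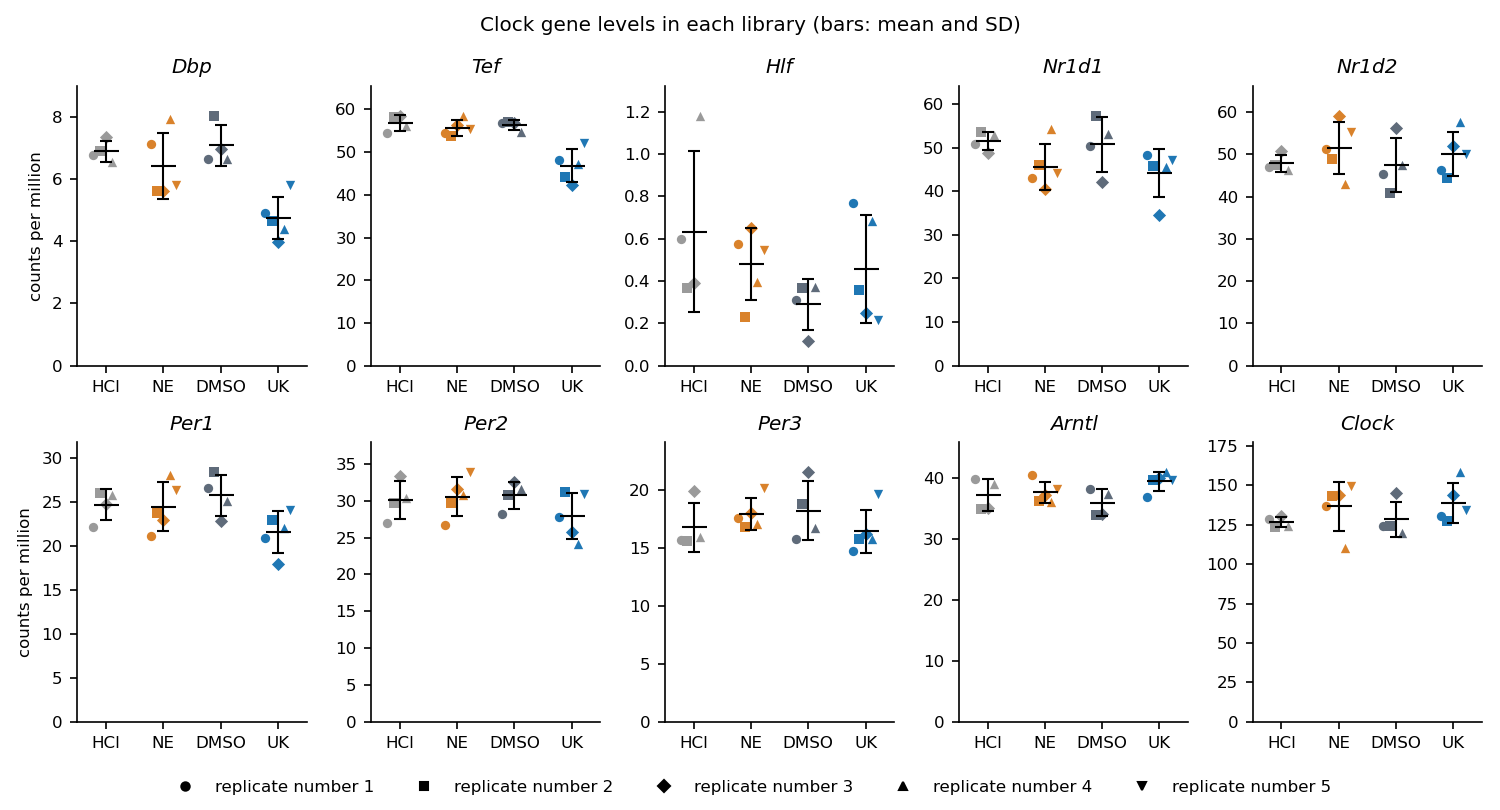
CPM of each clock gene (y axis, from 0) in every library of the HCl, norepinephrine (NE), DMSO and UK14304 (UK) groups, with the marker shape giving the replicate number and bars the mean and SD. For Dbp and Tef all 5 UK14304 libraries lie below all 4 DMSO libraries, while for the other 8 genes the 2 groups overlap.

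With UK14304, Dbp and Tef were lower than with DMSO and the 2 groups did not overlap for either gene, Per1, Per3 and Nr1d1 were lower in every library pair of the same number, and Arntl and Clock were slightly higher in 3 of 4 pairs. Groups did not overlap for 2 of the 10 clock genes, beside 3.51% of all genes tested. In edgeR's quasi-likelihood test over all genes, 0 of 10 passed an adjusted p of 0.05 beside 0.0394% of all genes when libraries were treated as unpaired, and 2 of 10, Dbp and Tef, beside 1.22% when the replicate number was a block. Without the block, 4 of 10 had an unadjusted p under 0.05, where 11.2% of all genes did, and DESeq2 passed 2, Dbp and Tef, beside 0.314% of all genes.

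Dbp (chr7:45705088-45710203, plus strand), whose protein binds D-boxes and whose transcript swings widely over the day in many tissues, was at 4.90, 4.67, 3.96, 4.4 and 5.79 CPM in UK14304 libraries 1 to 5 and at 6.65, 8.03, 6.98 and 6.66 CPM in DMSO libraries 1 to 4. The highest UK14304 library, number 5, stayed below the lowest DMSO library. The mean was 4.74 ± 0.681 CPM (SD, n = 5) against 7.08 ± 0.65 CPM (SD, n = 4), a fitted log2 fold change of -0.58 (SE 0.118), or 33% lower. By replicate number the log2 ratios were -0.44, -0.77, -0.80 and -0.59, so that all 4 pairs pointed the same way. These values rest on 96 to 198 counts per library, and 18% of the exonic bases of Dbp overlap Sphk2 on the opposite strand, where reads assigned to both genes are not counted.

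Tef (chr15:81802421-81826863, plus strand), a paralogue of Dbp, was at 48.2, 44.2, 42.4, 47.3 and 52.3 CPM with UK14304 and at 56.9, 57.0, 56.9 and 54.7 CPM with DMSO. Again every UK14304 library lay below every DMSO library, and the UK14304 group was wider, from 42.4 to 52.3 CPM. Means were 46.9 ± 3.81 CPM (SD, n = 5) and 56.4 ± 1.09 CPM (SD, n = 4), and the fitted log2 fold change was -0.27 (SE 0.0506), which is 16.9% lower. Its log2 ratios by number were -0.24, -0.37, -0.42 and -0.21. Hlf, the third PAR bZIP gene, was at 0.216 to 0.768 CPM with UK14304 and 0.116 to 0.37 CPM with DMSO, too few counts to separate its log2 fold change of 0.67 from its SE of 0.467.

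Of the Period genes, whose proteins close the loop by blocking CLOCK and BMAL1, Per1 was at 20.9, 23, 17.9, 22.1 and 24.2 CPM with UK14304 and at 26.6, 28.4, 22.9 and 25.1 CPM with DMSO. The groups overlapped, since DMSO library 3 lay below UK14304 libraries 2 and 5, but within each number UK14304 was lower, with log2 ratios from -0.35 to -0.19. Its fitted log2 fold change was -0.25 (SE 0.0901). Per3 was at 14.7 to 19.7 CPM against 15.8 to 21.6 CPM (log2 fold change -0.15, SE 0.0989) and was also lower in 4 of 4 pairs. Per2, lower in 3 of 4 pairs, was at 24.1 to 31.1 CPM against 28.2 to 32.5 CPM (log2 fold change -0.14, SE 0.0812). For Per2 the 2 groups differed most at numbers 3 and 4, with log2 ratios of -0.34 and -0.39, and hardly at numbers 1 and 2, with -0.02 and 0.02.

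The 2 REV-ERB genes stood on opposite sides of zero. Nr1d1, which encodes REV-ERBα, was at 48.3, 45.7, 34.6, 45.6 and 47.1 CPM with UK14304 and at 50.4, 57.2, 42.2 and 53.0 CPM with DMSO, and its library 3 was the lowest in both groups. It was lower in 4 of 4 pairs, by log2 ratios of -0.06 to -0.32, and its fitted log2 fold change was -0.2 (SE 0.0968). Of its exonic bases, 8.5% overlap Thra on the opposite strand. Nr1d2, which encodes REV-ERBβ, was at 44.5 to 57.6 CPM against 40.9 to 56.2 CPM and was higher in 3 of 4 pairs, with a log2 fold change of 0.08 (SE 0.0928).

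Arntl, the gene of BMAL1, was at 37.0, 39.6, 40.0, 41.0 and 39.8 CPM with UK14304 and at 38.2, 34.0, 34.1 and 37.5 CPM with DMSO. UK14304 libraries 2 to 5 exceeded every DMSO library and library 1 did not, so the groups overlapped. Its log2 fold change was 0.13 (SE 0.0551), which is 9.76% higher. Clock was at 127 to 158 CPM against 120 to 145 CPM, with a log2 fold change of 0.11 (SE 0.078), and UK14304 library 4, the one with the lowest GC slope, was the highest. Across the 10 genes the median log2 fold change was -0.14, beside -0.0041 over all genes tested.

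With the replicate block the log2 fold changes were -0.6 (SE 0.125) for Dbp, -0.29 (SE 0.0518) for Tef and -0.29 (SE 0.072) for Per1, so pairing left the sizes nearly as they were. It narrowed the error of Per1, while those of Dbp and Tef were slightly wider than the 0.118 and 0.0506 without the block. When the GC trend was removed from each library, Dbp stood at -0.51 (SE 0.101), Tef at -0.22 (SE 0.0466), Per1 at -0.17 (SE 0.0811), Nr1d1 at -0.13 (SE 0.0804) and Clock at 0.01 (SE 0.0363). With the trend removed, the Clock difference was smaller than its SE, and that of Dbp was not.

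**Figure D2:**
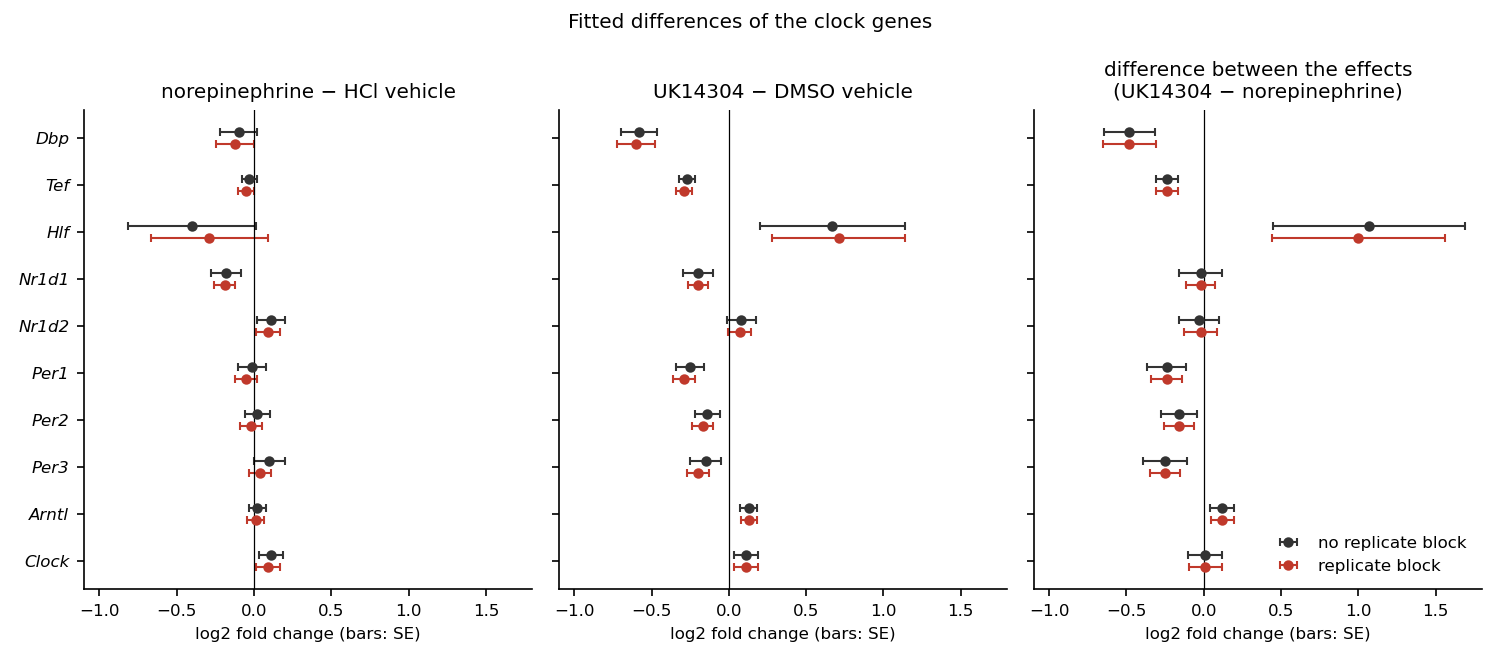
Fitted log2 fold changes (points) with SE (bars) of the 10 clock genes for norepinephrine against HCl, UK14304 against DMSO and the difference between the 2 effects, without (black) and with (red) the replicate number as a block. Dbp and Tef lie left of zero with UK14304, at -0.58 and -0.27, and close to zero with norepinephrine, at -0.1 and -0.03.

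With norepinephrine, no clock gene was separated from HCl. Groups overlapped for all 10, beside 1.42% of all genes whose groups did not. By edgeR's quasi-likelihood test, 0 of 10 were called without the block, where 0% of all genes were, and 0 of 10 with it, where 0.105% were. At an unadjusted p under 0.05 there were 0 of 10 without the block, where 6.18% of all genes were, and 1 with it, where 8.4% were, and DESeq2 called 0 in both forms.

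Dbp was at 7.11, 5.60, 5.62, 7.93 and 5.81 CPM in norepinephrine libraries 1 to 5 and at 6.77, 6.90, 7.35 and 6.54 CPM in HCl libraries 1 to 4. Libraries 2, 3 and 5 lay below all HCl libraries and libraries 1 and 4 did not, and the log2 ratios by number, 0.07, -0.30, -0.38 and 0.27, pointed both ways. The fitted log2 fold change was -0.1 (SE 0.118). Tef, at 53.7 to 58.5 CPM against 54.4 to 58.4 CPM, had a log2 fold change of -0.03 (SE 0.0507).

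Nr1d1 differed most among the well-counted genes, at 43.0, 46.0, 40.5, 54.3 and 44.2 CPM with norepinephrine against 50.9, 53.6, 48.8 and 52.8 CPM with HCl. All but norepinephrine library 4 were below every HCl library. Its log2 fold change was -0.18 (SE 0.0971) with all libraries. For Nr1d2 and Clock the values were 0.11 (SE 0.0932) and 0.11 (SE 0.0782), and in both genes library 4 was the lowest of the norepinephrine group, at 43.1 and 110 CPM. Per1, Per2, Per3 and Arntl had log2 fold changes between -0.01 and 0.1.

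Without norepinephrine library 4 and with the replicate block, 3 of the 10 genes passed the adjusted p, Nr1d1 at -0.24 (SE 0.0579), Nr1d2 at 0.18 (SE 0.0611) and Clock at 0.19 (SE 0.0624), beside 16.7% of all genes, and Dbp stood at -0.24 (SE 0.113). With all libraries and the block, these 4 genes stood at -0.19 (SE 0.067), 0.09 (SE 0.0763), 0.09 (SE 0.0779) and -0.12 (SE 0.123). With the GC trend taken out in addition, they stood at -0.12 (SE 0.0474), 0.04 (SE 0.0479), -0.01 (SE 0.0321) and -0.05 (SE 0.102). The GC content of these transcripts is 56.4% for Nr1d1, 45.4% for Nr1d2, 41.4% for Clock and 56.7% for Dbp, and its part in the shift without library 4 was not tested.

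**Figure D3:**
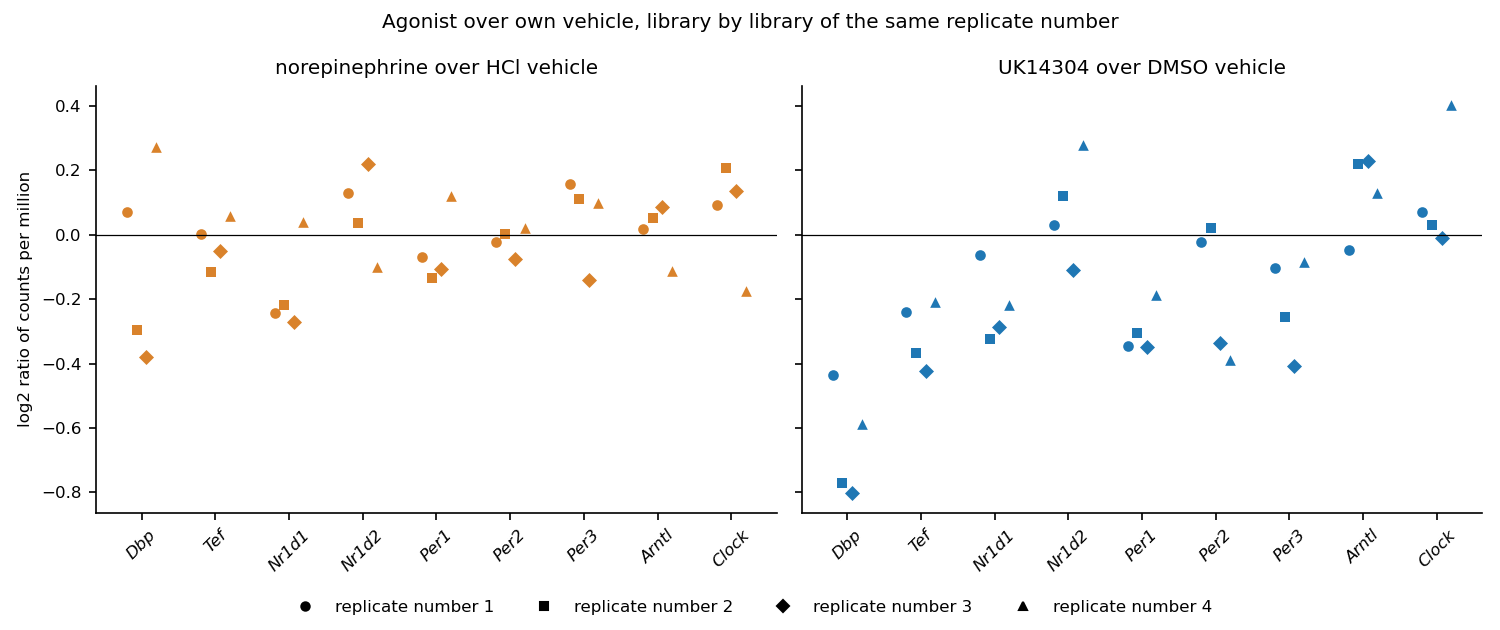
Log2 ratio of CPM (y axis) of norepinephrine over HCl (left) and UK14304 over DMSO (right) for each replicate number from 1 to 4, by gene, with Hlf left out for its low counts. With UK14304 all 4 points of Dbp, Tef, Per1, Per3 and Nr1d1 lie below zero; with norepinephrine the points of number 4 often lie opposite to the others.

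The difference between the 2 agonist effects, UK14304 minus norepinephrine with each set against its own vehicle, was -0.48 (SE 0.167) for Dbp, -0.24 (SE 0.0717) for Tef, -0.24 (SE 0.128) for Per1 and -0.25 (SE 0.14) for Per3 on the log2 scale. For Nr1d1 it was -0.02 (SE 0.137), with both agonist groups below their vehicles by a like amount. None of the 10 genes was called by edgeR with or without the block, as for 0% of all genes in either form, and DESeq2 called 0. Unadjusted p values were under 0.05 for 2 of 10 without the block, beside 1.51% of all genes, and for 4 with it, beside 2.66%. These values include norepinephrine library 4. Over the fits without 1 library, that one among them, the difference was -0.56 to -0.39 for Dbp and -0.28 to -0.21 for Tef. Under the block it was -0.59 to -0.37 for Dbp and -0.29 to -0.21 for Tef. Without norepinephrine library 4, 0 of 10 were called without the block (0% of all genes) and 0 with it (0.0066%). Between the agonist libraries of one number, UK14304 was below norepinephrine in 5 of 5 pairs for Dbp, Tef, Per1 and Per3, but for Dbp the log2 ratio at number 5 was only -0.005. At numbers 4 and 5 the agonist libraries did not deviate together over all genes (r = -0.212 and 0.041), so these 2 pairs share only a number.

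The vehicles were compared with each other as a measure of the background. By edgeR, 0 of 10 clock genes were called between DMSO and HCl with or without the block, as for 0% of all genes in either form, and DESeq2 called 0. The log2 differences were 0.04 (SE 0.123) for Dbp and -0.01 (SE 0.0533) for Tef, and those of the other well-counted genes lay between -0.05 and 0.12. Hlf, at 0.366 to 1.18 CPM with HCl, was the 1 gene with an unadjusted p under 0.05, with a log2 difference of -1.14 (SE 0.472) on few counts.

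Between replicate numbers, 2 of 10 clock genes were called beside 13.8% of all genes tested, a share near the background. The joint test over the 5 numbers, with group in the model, did not use the difference between agonist and vehicle by which the genes were chosen. It called Nr1d1 with an edgeR quasi-likelihood adjusted p of 0.0215 and Per3 with 0.0186. Nr1d1 was lowest in library 3 in all 4 groups, at 48.8, 42.2, 40.5 and 34.6 CPM in HCl, DMSO, norepinephrine and UK14304. Per3 was highest in library 3 of the vehicle groups, at 19.9 and 21.6 CPM, and in library 5 of the agonist groups, at 20.2 and 19.7 CPM. Number 5 had no vehicle library, and without it the adjusted p of Per3 was 0.0596.

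Dbp and Tef were not called between replicate numbers. Averaged over groups, Dbp ranged by 0.17 and Tef by 0.1 log2 units between numbers, against 0.32 for Nr1d1 and 0.33 for Per3, and the edgeR adjusted p values of Dbp and Tef were 0.952 and 0.81. The call of Nr1d1 was lost without DMSO library 3 (adjusted p = 0.142), norepinephrine library 3 (0.0663) or UK14304 library 3 (0.169), and that of Per3 without HCl library 3 (0.0698), DMSO library 3 (0.0566) or UK14304 library 5 (0.0783), all by the same edgeR test. With the 8 vehicle libraries alone, where no agonist was given, 4 clock genes were called, Nr1d1, Nr1d2, Per3 and Clock, beside 16.8% of all genes, and the adjusted p was 0.0169 for Nr1d1 and 0.00717 for Per3.

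**Figure D4:**
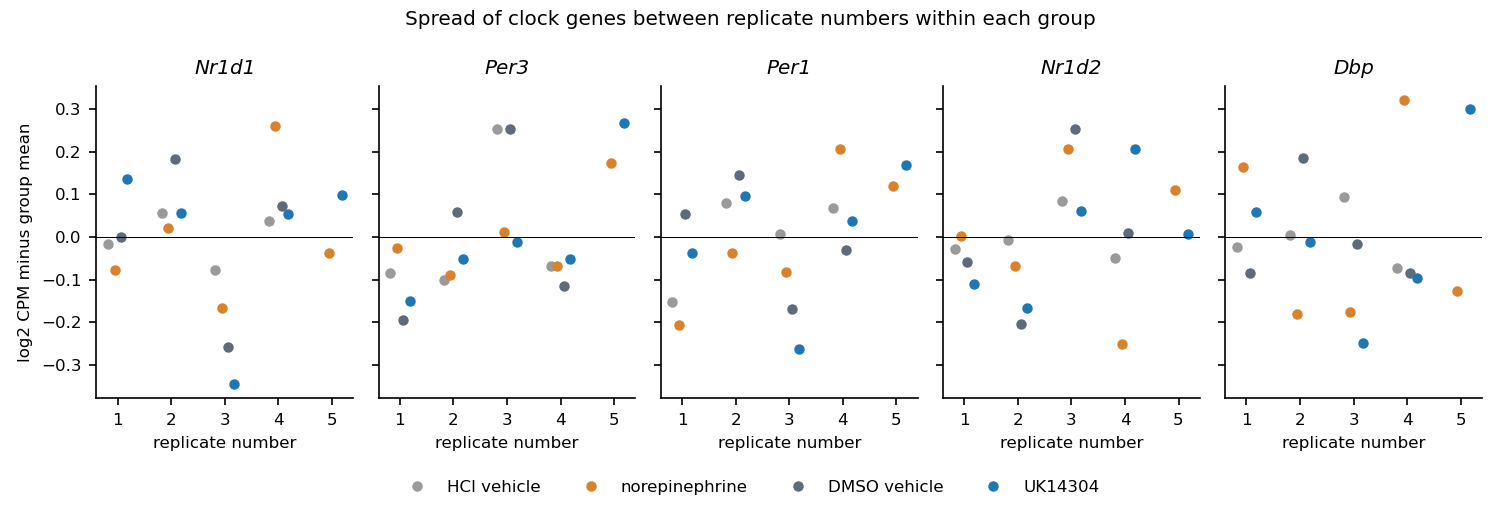
Log2 CPM minus the group mean (y axis) of 5 clock genes in each library, by replicate number (x axis) and coloured by group. Nr1d1 is lowest at number 3 in all 4 groups and Per3 is above its group mean at number 5 in both agonist groups, whereas the points of Dbp at one number spread to both sides of zero.

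Of 27 further genes of the clock, 25 passed the low-count filter, and they were compared in the same fits. With UK14304, edgeR called 0 of 25 without the block, beside 0.0394% of all genes, and 1 with it, beside 1.22%. Without the block, 5 of 25 had an unadjusted p under 0.05, where 11.2% of all genes did, and DESeq2 called 1, beside 0.314%. The gene called in both was Tsc22d3, which encodes the glucocorticoid-induced leucine zipper protein and is rhythmic in many tissues. Tsc22d3 was at 33.9, 35.5, 28.1, 29.3 and 33.2 CPM with UK14304 and at 42.2, 42.0, 35.8 and 39.5 CPM with DMSO. It was the 1 gene of the 25 without overlap, beside 3.51% of all genes. Its log2 fold change was -0.33 (SE 0.0525, edgeR adjusted p = 0.00303) with the block and -0.32 (SE 0.0723, adjusted p = 0.119) without, and with norepinephrine it was -0.09 (SE 0.0526) with the block.

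Over the 25 genes the median log2 fold change with UK14304 was -0.04, beside -0.0041 over all genes tested. The repressor arm, with Cry1, Cry2, Ciart, Bhlhe40 and Nfil3 tested, had 0 of 5 called and 5 of 5 below DMSO, where 48.7% of all genes were above it. Its median was -0.15, with the largest for Ciart, a repressor of CLOCK and BMAL1, at -0.18 (SE 0.128, adjusted p = 0.573). With norepinephrine, 3 of these 5 were below HCl. Bhlhe41 and Rorb were too low to test. In the activator arm, 0 of 4 were called, with a median of -0.05. Arntl2, the paralogue of Arntl, had the largest value there at 0.28 (SE 0.131, adjusted p = 0.44). Among the kinases and turnover factors, 0 of 6 were called, with a median of 0.02. The cross-tissue rhythmic outputs had a median of -0.21 over 5 genes, with Tspan4 at -0.4 (SE 0.134, adjusted p = 0.364). The 5 resetting inputs had a median of 0.11. Of these, Sgk1, a glucocorticoid-induced kinase, was highest at 0.37 (SE 0.213, adjusted p = 0.508) and above DMSO in 4 of 4 pairs. These p values are from edgeR without the block, and with it Sgk1 stood at 0.33 (SE 0.0845, adjusted p = 0.0687).

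With norepinephrine, edgeR called 0 of the 25 without the block, where 0% of all genes were, and 0 with it, where 0.105% were, and DESeq2 called 0. At an unadjusted p under 0.05 there were 2 without the block, beside 6.18% of all genes, and 3 with it, beside 8.4%. Without norepinephrine library 4 and with the block, 4 of 25 were called, Bhlhe40, Wee1, Nr3c1 and Creb1, beside 16.7% of all genes, a share near the background. For the difference between the agonist effects 0 of 25 were called in either form, as for 0% of all genes, and DESeq2 called 0. In each form 1 had an unadjusted p under 0.05, beside 1.51% of all genes without the block and 2.66% with it. Between replicate numbers, 6 of 25 were called, beside the same 13.8% of all genes. Sgk1 had the lowest adjusted p at 1.28e-05 and a range of 0.83 log2 units, highest at number 3 and lowest at number 2. Bhlhe40 (4.73e-05), Npas2, the paralogue of Clock (0.000481), Nfil3, a D-box repressor (0.00147), Tsc22d3 (0.0299) and Cry2 (0.0365) were all lowest at number 3 when averaged over groups. Unlike Nr1d1, not all were so in every group. At numbers 1 and 3, Cry2 was at 10.1 and 10.6 CPM in HCl and Npas2 at 31.1 and 31.7 CPM in DMSO. By the same edgeR test, the call of Cry2 was lost in 13 of 18 fits without 1 library, with an adjusted p of up to 0.224, and with the vehicle libraries alone (0.327), and that of Tsc22d3 in 10 of 18, with up to 0.159. The calls of Sgk1, Bhlhe40, Npas2 and Nfil3 were lost in 0 of 18.

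Within groups, the clock genes varied together in some pairs and against each other in others. After removal of group means, Pearson's r over the 18 libraries was 0.68 for Dbp with Tef, 0.79 for Nr1d1 with Per1 and 0.84 for Nr1d2 with Clock, and -0.71 for Nr1d1 with Nr1d2. Among the 45 pairs, 6 had an r above 0.5 and 3 an r below -0.5. Libraries share their GC slope among all genes, and the r of each gene with that slope was -0.93 for Clock, -0.83 for Nr1d2, 0.66 for Dbp, 0.62 for Nr1d1 and 0.33 for Tef. When the GC trend was removed, Dbp with Tef stood at 0.53, Nr1d1 with Per1 at 0.68, Nr1d2 with Clock at 0.42 and Nr1d1 with Nr1d2 at -0.5, and 8 pairs were above 0.5 and 0 below -0.5. Per2 with Per3 went from 0.59 to 0.68, and Arntl with Clock from 0.1 to -0.41. These values describe the 18 libraries, which share replicate numbers between groups, and the part of the numbers in each r was not tested.

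**Figure D5:**
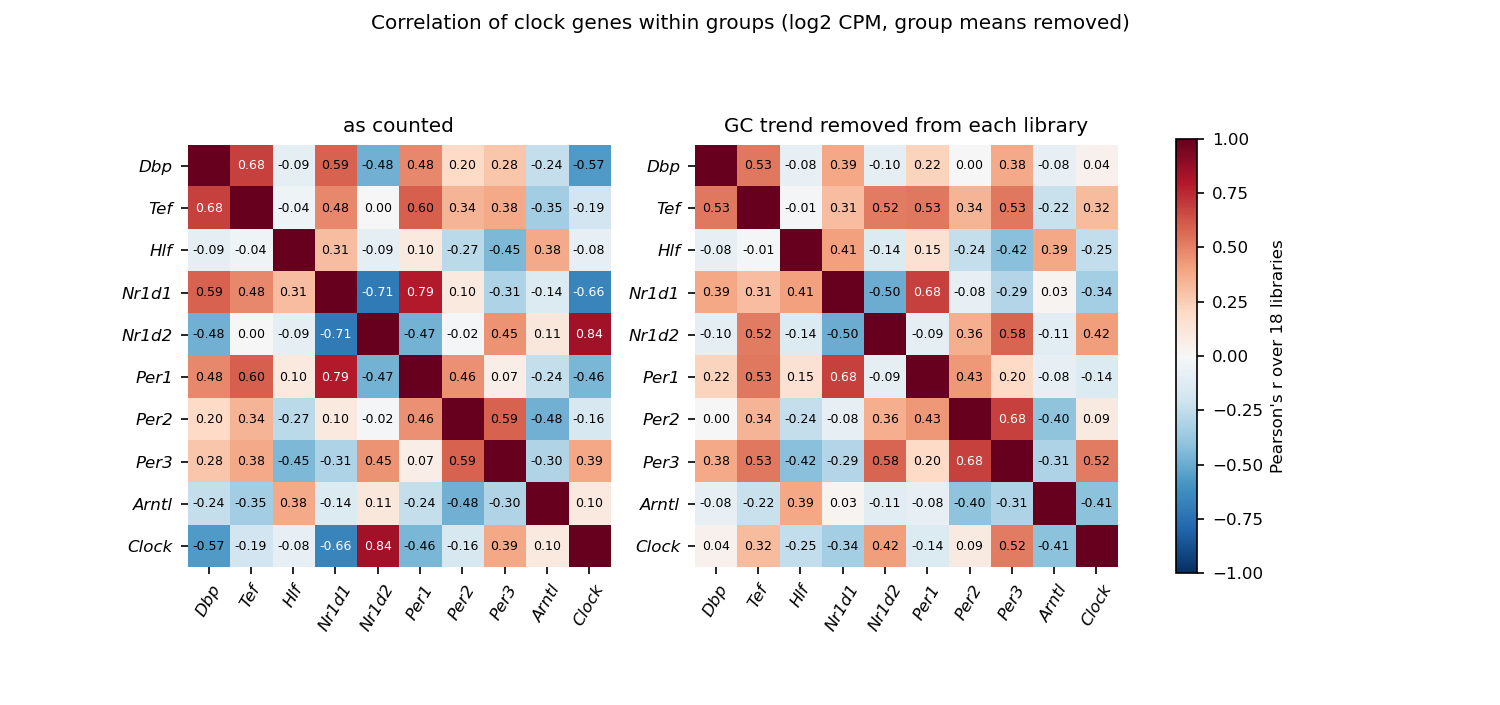
Pearson's r between clock genes over 18 libraries after group means were removed (colour and printed value), as counted (left) and with the GC trend of each library removed (right). The value of -0.71 for Nr1d1 with Nr1d2 shrinks on the right to -0.5, while that of Arntl with Clock goes from 0.1 to -0.41. Dbp with Tef stays positive at 0.53.

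The genes whose within-group pattern was most like that of Dbp, out of 9280 with a mean of at least 10 CPM over 18 libraries, were Dxo (r = 0.87), Pgs1 (0.86), Gpr137 (0.85), Traf7 (0.84) and Hmg20b (0.83). Those most opposed to it were Rpl39 and Bloc1s6 (both -0.89), Tent2 (-0.88), Tcp1 (-0.87) and Fig4 (-0.85). With the GC trend removed the first 5 had r from 0.72 to 0.75, and Tcp1 went to -0.41. None of these 10 genes is in the lists of clock genes. For Arntl the closest were Utp14a (r = 0.8), Srp19 and Fam192a (both 0.79), Rbks (0.78) and Vps26b (0.77). With the GC trend removed these stood, in the same order, at 0.45, 0.55, 0.83, 0.75 and 0.82. The gene most opposed to Arntl was Csnk1e (-0.84, and -0.83 with the GC trend removed), which encodes casein kinase 1 epsilon, a kinase that phosphorylates PER proteins. Next came Zfp839 (-0.81), Baiap2 and Ptp4a3 (both -0.74) and Acsf2 (-0.73), none of them in the lists of clock genes. With the GC trend removed these had r from -0.7 to -0.64.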

How the data were processed

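The deposited table held counts of single-end reads per Ensembl gene, made by the authors. Per the submitters' processing notes and the file header, reads were aligned with STAR (2.7.3) to GRCm38 and counted over exons with featureCounts. The header names featureCounts 2.0.1 with Ensembl 102, and the notes Subread 1.6.4. Symbols were matched for 55141 of 55487 identifiers.

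Counts were analysed with edgeR (4.0.16) in R (4.3.3): filterByExpr by group, TMM factors, robust quasi-likelihood fits with 4 group means over 18 libraries, and Benjamini-Hochberg adjustment over 15247 genes at 0.05. CPM used TMM-scaled totals of the tested genes. DESeq2 (1.42.0) was an alternative. Joint F tests compared replicate numbers, with group in the model. Whether numbers pair libraries was checked by the correlation, over all genes, of deviations from group means: r was 0.119 to 0.431 for the 4 norepinephrine and HCl pairs and 0.155 to 0.52 for the 4 UK14304 and DMSO pairs, all over 0.1, so the fit with the number as a block is printed beside results whose call it changes. Of the 5 norepinephrine and UK14304 pairs, numbers 1 to 3 had r of 0.107 to 0.436, number 4 had -0.212 and number 5 had 0.041. The correlations within groups used log2 CPM with a prior count of 2. GC content came from GENCODE M21 transcripts, for 15229 tested genes, and its trend was a lowess curve (span 0.3) per library. No 2 libraries of a group agreed within counting noise (chi-square per degree of freedom at least 7.22). Tests were checked on counts simulated for UK14304 against DMSO. Of 100 genes raised 1.5-fold, 65 were called without the block and 71 with it. The simulated libraries had no GC trend, so the check does not cover such trends. Nothing states that libraries came from separate cultures or animals, so p-values may measure technical spread only. In bulk organoids, fewer cells of a type and less RNA per cell cannot be told apart.

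The 10 genes, the lists of other clock genes and the tests were chosen with earlier results of these data known. The other clock genes named are those called in a comparison and the largest fold change of each list. The 5 genes most and the 5 least like Dbp are named, and likewise for Arntl.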

Additional observations from a re-analysis of the deposited data

Results flagged for a closer look

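In 40 sets of 4 or 5 libraries, 1 for each clock gene and group, a single library was set far from the others in 3, by Dixon's test at the 95% level. Chance gives about 1 in 20. For Tef, DMSO library 4 was lowest at 54.7 CPM, with the next at 56.9, and it still lay above every UK14304 library. For Nr1d1, UK14304 library 3 was lowest at 34.6 CPM, with the next at 45.6. For Per3, HCl library 3 was highest at 19.9 CPM, with the next at 15.9. Library 3 was also the lowest for Nr1d1 in the other 3 groups and the highest for Per3 in the DMSO group.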

How the results depend on the processing

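With UK14304, the count of called clock genes, 0 of 10 without the replicate block, was 2 with the block (1.22% of all genes), without a low-count filter (0.0659%), without the samples numbered 5 under the block (1.15%), and with DESeq2 (0.314%). It was 1 without the samples numbered 5 (Tef, 0.033%), with the GC trend removed (Dbp, 0.138%), and with the ribosomal RNA share as a covariate under the block (Tef, 0.577%). It was 3 with DESeq2 under the block (1.96%) and with the GC trend removed under the block (3.36%), and 4 with only the 2 groups under the block (3.55%), so the share of all genes called moved as well. Leaving out 1 library gave 0 to 2, with or without the block: 2 without UK14304 library 5 and no block, and under the block 0 without DMSO library 2 and 1, Tef, without DMSO library 3, UK14304 library 2 or UK14304 library 3. The clock genes were chosen on this comparison, and nothing is read from these counts. For the other clock genes, 0 of 25 became 1 with the block, without a low-count filter, and with DESeq2 in both forms. It was also 1 under the block with only the 2 groups, without the samples numbered 5, and with the ribosomal RNA share. With the GC trend removed under the block it was 2 (Tsc22d3 and Sgk1). The shares of all genes called in these fits are those given above. Leaving out 1 library gave 0 without the block (0.0129% to 0.0461% of all genes) and 1 with it (0.442% to 1.28%). With norepinephrine, leaving out 1 library under the block gave 0 to 3 clock genes and 0 to 4 others, the upper values without library 4, where 16.7% of all genes were called.

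Between replicate numbers, the 2 clock genes became 0 at an adjusted p under 0.01, 4 without a low-count filter (8.04% of all genes), 1 without the samples numbered 5 (15.8%), 5 with the GC trend removed (23.6%) and 4 with only the vehicle samples (16.8%), and 0 to 4 without 1 library (9.87% to 23.6%). The 6 other clock genes ranged from 4 to 10 without 1 library, with 10 without norepinephrine library 4 (23.6% of all genes) or UK14304 library 4 (21%), so the share of all genes called moved as well.

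After seeing the data, the 7 libraries above 1% ribosomal RNA were left out, which leaves 1 DMSO library assumed to vary like the rest. No clock gene was then called without the block. With the block, 3 clock genes and 6 of the other clock genes were called with norepinephrine beside 16.8% of all genes. DMSO library 4 and UK14304 library 4 were the only libraries left with number 4. Under the block the UK14304 difference was therefore that 1 pair, and this UK14304 library has the lowest GC slope (-0.235). Its log2 ratios were -0.59 for Dbp, 0.28 for Nr1d2, -0.39 for Per2 and 0.4 for Clock. The difference between the agonist effects and that between the vehicles used the same pair, so calls are not given for them. The leave-one-out fits under the block were also added after seeing the data. Apart from the fits without these 7 libraries, the replicate block changed calls of clock genes with UK14304, as given above. With norepinephrine it changed them only without library 4. For the difference between the agonist effects and between the vehicles it changed none. Dbp kept its sign in 33 of 33 alternatives with UK14304, between -0.66 and -0.5, and Tef in 33 of 33, between -0.31 and -0.2. The cause was not tested for any of these shifts. Dbp, with at most 201 counts per library, and Hlf are limited by depth.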
